A study of Arabidopsis thaliana with 48 samples.

Results

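Leaves and shoot apices of the *Arabidopsis thaliana* double mutant *flc svp* were compared under long days (LDs). The arrays were chosen by their labels alone, as the 3 leaf arrays and the 3 apex arrays of *flc svp* under LDs, 6 of the 48 arrays of the series. Each array measured total RNA of 1 biological replicate on an AGRONOMICS1 tiling array, and values are the authors' log2 expression values. The *flc svp* plants carried *flc-3* and *svp-41* in the Columbia background with an active *FRIGIDA* (*FRI*) allele, which the wild type (WT, functional *FLC* and *SVP*) also carried. They grew on soil for 2 weeks under short days (SDs) and then spent 2 further days under LDs, and tissue was taken at zeitgeber time 8 (8 h after dawn). Set beside them were the 6 WT arrays of the same tissues and LD treatment and the 6 *flc svp* arrays of the same tissues under SDs. The sources differ on whether the SD plants also received 2 extra days, so day length and plant age cannot be told apart in the comparison with SDs. Leaf and apex samples hold many cell types, and a change in the share of a cell type and a change in RNA per cell cannot be told apart.

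FLC and SVP are MADS-domain transcription factors that repress flowering. *FRI* keeps *FLC* active, and SVP acts with FLC on *FT* in the leaf and on *SOC1* at the apex. Leaves sense day length through CONSTANS, which activates *FT* in the phloem companion cells, and the FT protein moves to the shoot apical meristem. The apex holds the meristem and the youngest organ primordia, whose cells divide, whereas the expanded leaf blade is built for photosynthesis, photorespiration and sugar export.

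Levels of the mutated genes checked the labels. *FLC* (AT5G10140) read 5.56, 5.22 and 5.62 in *flc svp* leaves, against 8.68, 8.6 and 8.4 in WT leaves, and 6.27, 5.95 and 6.34 in *flc svp* apices, against 9.44, 9.12 and 9.2 in WT apices. *SVP* (AT2G22540) read 6.73, 6.97 and 6.94 in *flc svp* leaves, against 8.07, 8.33 and 8.46 in WT leaves, and 6.51, 6.66 and 6.69 in *flc svp* apices, against 7.41, 7.75 and 7.71 in WT apices. Every *flc svp* array lay below every WT array of its tissue for both genes, and some signal remained in all of them. Between tissues of *flc svp*, leaf minus apex was -0.72 ± 0.14 (SE) for *FLC* and 0.26 ± 0.11 for *SVP*, and neither gene was called. None of the 7 genes of the *FLC* clade and *SVP* was called between leaves and apices (median 0.10).

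Genes were called past a 2-fold difference between leaf and apex with adjusted p below 0.01 (limma over all 48 arrays, Benjamini-Hochberg over 31004 genes). Differences are log2 values, leaf minus apex, each given ± its standard error from limma. Means of a group stand alone or ± SD. All groups had n = 3 arrays. In *flc svp* under LDs 2860 genes were called, 9.22% of those tested. Of these, 1532 were higher in leaves (4.94% of all genes) and 1328 were higher in apices (4.28%). Counts of called genes in the lists below are to be read against these shares. Differences of more than 8-fold were reached by 61 genes towards leaves and by 58 towards apices. In 2852 of the 2860 genes the 3 leaf arrays all lay beyond the 3 apex arrays, as they did for 15650 of all 31004 genes. The calls were made on these same arrays, so that this describes them and is no separate test. Arrays of the same tissue correlated across genes at r between 0.989 and 0.993, and leaf arrays correlated with apex arrays at r between 0.95 and 0.956. Leaf-higher genes made up 53.6% of the calls as deposited and 75.9% after centring each array on the reference genes *PP2A* and *UBC21*. That centring put the median difference of all genes at 0.31, against 0.03 as deposited. *PP2A* (AT1G13320) averaged 7.41 in leaves and 7.57 in apices, and *UBC21* (AT5G25760) 8.07 in leaves and 8.45 in apices. *UBC21* itself thus differed between the tissues, short of 2-fold (-0.39, limma adjusted p = 7.51e-05), and the centring carries part of this difference over to every gene.

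The largest differences spanned several functions. Towards leaves, *AT1G23130*, which has no name in the reference annotation, read 11.09, 10.92 and 11.27 in leaves, against 4.84, 4.29 and 5.35 in apices (difference 6.27 ± 0.33, adjusted p = 8.81e-18). *AOC1* (AT3G25760), which encodes an allene oxide cyclase of jasmonate synthesis, read 10.8, 11.54 and 11.55 in leaves, against 5.87, 6.91 and 6.33 in apices (4.93 ± 0.34). The sucrose exporters *SWEET11* (AT3G48740) and *SWEET12* (AT5G23660), which release sucrose beside the phloem, both belonged to the 12 largest. *SWEET11* read 10.47, 10.32 and 10.45 in leaves, against 5.27, 5.78 and 5.7 in apices, and *SWEET12* read 8.91, 8.6 and 8.66 in leaves, against 4.94, 4.6 and 4.44 in apices. The fructose-bisphosphate aldolase gene *FBA5* (AT4G26530) averaged 11.08 ± 0.23 (SD) in leaves and 6.61 ± 0.41 in apices. The remaining genes of the 12 were *AT1G66100* (5.51 ± 0.50), *FAMT* (4.82 ± 0.55), a farnesoic acid methyltransferase gene, *AT5G35480* (4.74 ± 0.27), the methyl esterase gene *MES18* (4.39 ± 0.25), *AT4G15660* (4.25 ± 0.39), *AT1G19020* (3.93 ± 0.42) and the elicitor-activated gene *ELI3-1* (3.89 ± 0.15). *FAMT* had the largest standard error of these 12 genes, with 7.77, 9.35 and 9.32 in leaves and 3.01, 4.85 and 4.14 in apices.

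Towards apices, the largest difference of all genes belonged to *AT4G22513*, which read 3.41, 3.19 and 3.75 in leaves and 11.23, 11.32 and 11.08 in apices (-7.76 ± 0.80, a 217-fold difference, adjusted p = 2.50e-10). Its neighbours on chromosome 4 by locus number included 3 more of the 12 genes. *AT4G22490* averaged 5.63 ± 0.12 in leaves and 11.93 ± 0.15 in apices, *AT4G22520* 4.34 ± 0.59 in leaves and 10.85 ± 0.17 in apices, and *AT4G22517* 2.65 ± 0.21 in leaves and 7.35 ± 0.07 in apices. *AT4G22505*, which lies among them, stood at 7.62 in leaves and 7.60 in apices, so that the difference was not shared by the whole stretch. Whether probes are shared among these loci is not known, and their separate levels are uncertain for that reason. *AT3G05727* read 4.62, 3.68 and 3.94 in leaves and 10.9, 10.98 and 11.22 in apices (-6.95 ± 0.51). The peroxidase gene *PRXCA* (AT3G49110) read 4.03, 3.94 and 4.42 in leaves and 10.46, 10.23 and 10.77 in apices (-6.35 ± 0.32). *CDEF1* (AT4G30140), which encodes a cutinase, averaged 3.49 ± 0.11 in leaves and 9.24 ± 0.49 in apices. The others were *AT5G38940* (-5.86 ± 0.36), *AT5G01870* (-4.98 ± 0.24), *AT4G11190* (-4.95 ± 0.25), the basic pathogenesis-related gene *PRB1* (-4.28 ± 0.17) and *CYP81F4* (-4.16 ± 0.34), a cytochrome P450 gene that modifies indole glucosinolates. All 24 of these calls held under every alternative tried, including each scaling and each array left out.

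**Figure D1:**
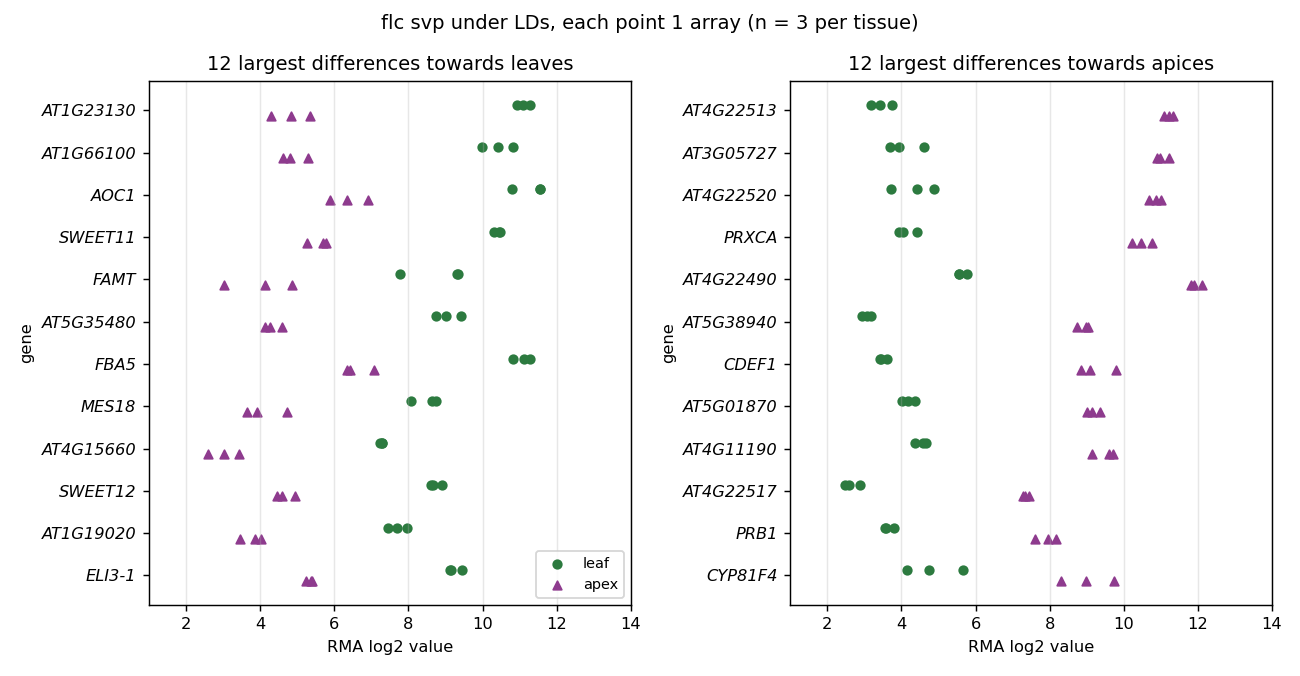
RMA log2 values (x axis) of the 12 genes with the largest differences towards leaves (left panel) and the 12 towards apices (right panel) in *flc svp* under LDs. Each circle is a leaf array and each triangle an apex array (3 per tissue). The 24 genes were taken only from called genes whose tissues do not overlap, so that their separation is no separate result.

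Genes of photosynthesis were higher in leaves or not called, and none was called higher in apices. Of 31 genes of light harvesting, Rubisco and the Calvin cycle, 18 were called higher in leaves (4.94% over all genes), with a list median of 1.11 against 0.03 for all genes. The difference was smallest for *LHCB1.2* (13.4 in leaves and 13.02 in apices), near the upper end of the measured range (13.53). The largest were those of *LHCA6*, a photosystem I antenna gene (10.75 in leaves and 8.09 in apices), and *LHCB2.3* (12.66 in leaves and 10.1 in apices), followed by the Calvin cycle gene *CFBP1* (2.37), which encodes fructose-bisphosphatase. *PRK* (2.11), for phosphoribulokinase, and *SBPASE* (1.86), for sedoheptulose-bisphosphatase, belong to the same cycle. Among the Rubisco small subunit genes, *RBCS2B* differed by 2.1 and *RBCS1B* by 1.27, whereas *RBCS3B* (0.90) and *RBCS1A* (0.50) were not called. The members of the *RBCS* and *LHCB1* families are close copies of one another, so their separate levels are uncertain. Of 18 genes of the chloroplast genome, 9 were called higher in leaves and none in apices (median 1.06).

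Photorespiration, which recycles the product of Rubisco's oxygenase reaction, gave calls in one direction, with 11 of its 12 measured genes called higher in leaves (median 1.64). *CAT2* (AT4G35090), the catalase of leaf peroxisomes, averaged 9.68 in leaves and 6.97 in apices (2.71). *AGT1*, a peroxisomal aminotransferase gene, averaged 11.8 in leaves and 9.19 in apices (2.61), and the hydroxypyruvate reductase gene *HPR1* 10.56 in leaves and 8.66 in apices (1.90). Of the paired genes for the glycine decarboxylase P-protein, *GLDP1* was called (7.84 in leaves and 6.46 in apices) and *GLDP2*, the exception in the list, was not (6.67 in leaves and 6.48 in apices).

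Calls among markers of phloem and guard cells, which are found in the mature blade, lay towards leaves. Of 6 phloem genes measured (median 1.48), *SWEET11*, *SWEET12* and the sucrose loader *SUC2* (9.18 in leaves and 7.05 in apices) were called, whereas *APL* (0.83), *NAKR1* (0.78) and *SEOR1* (-0.53) were not. After centring on *PP2A* and *UBC21*, *APL* (1.11) and *NAKR1* (1.06) were called too, 5 of the 6. Of 6 guard cell genes (median 1.00), *GC1* (10.13 in leaves and 6.33 in apices), the potassium channel gene *KAT1* (6.1 in leaves and 3.97 in apices) and *MYB60* (4.82 in leaves and 3.59 in apices) were called higher in leaves. Earlier steps of the stomatal lineage stood the other way: the 2 calls among 9 genes (median -0.72) were *POLAR* (4.68 in leaves and 6.05 in apices) and the receptor gene *TMM* (6.05 in leaves and 7.08 in apices), both higher in apices. *TMM* was no longer called under either other scaling. Of the late lineage genes, *FAMA* differed by 0.89 and *EPF1* by 0.85, and both were called higher in leaves after centring on *PP2A* and *UBC21*.

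Calls in the trichome list lay towards apices and those in the senescence list towards leaves. *GL1* (AT3G27920), the MYB factor that starts trichome fate, averaged 4.76 in leaves and 7.59 in apices, and the small MYB genes *ETC1* (-1.72) and *CPC* (-1.40) were also higher in apices, 3 of 7 genes (median -0.46). Of 10 senescence genes (median 0.77), *WRKY53* (6.71 in leaves and 4.4 in apices) and *SAG21* (9.62 in leaves and 8.15 in apices) were called higher in leaves, and the call of *SAG21* was lost without leaf replicate 1 or 3 or apex replicate 1 or 2. After centring on *PP2A* and *UBC21* 4 of the 10 were called. *SAG12*, the defining marker of senescent leaves, stood at 2.62 in leaves and 2.47 in apices. Of 9 root genes (median 0.09), only *PYK10* was called (8.26 in leaves and 11.17 in apices), against 9.22% of all genes. The mean of *IRT1* was 2.75 in leaves and 2.67 in apices, and that of *EXPA7* 3.97 in leaves and 3.53 in apices. Averaged over each list, the phloem markers lay between 7.57 and 7.66 in leaf arrays and between 5.58 and 5.59 in apex arrays, the guard cell markers between 5.82 and 5.98 in leaf arrays and between 4.45 and 4.53 in apex arrays, and the trichome genes between 4.77 and 4.85 in leaf arrays and between 5.72 and 5.86 in apex arrays. These marker levels moved with the tissue, and their part in the other differences was not tested.

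**Figure D2:**
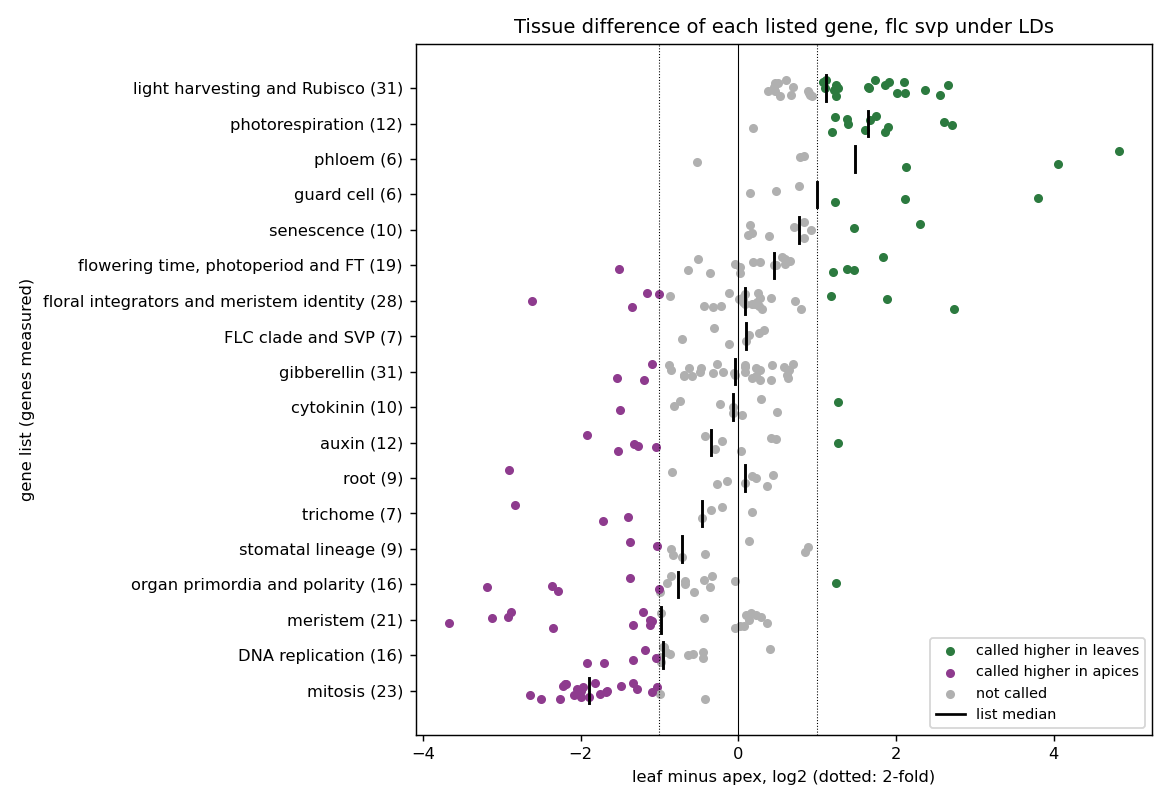
Leaf minus apex difference (log2, x axis) of each gene of 18 lists in *flc svp* under LDs, with the number of genes measured in brackets. Green and purple points are genes called higher in leaves and in apices, grey points were not called, and black bars are list medians, which run from 1.64 for photorespiration to -1.89 for mitosis.

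The calls among meristem regulators all lay towards apices. Of 21 meristem genes, 10 were called higher in apices (4.28% over all genes) and none in leaves, with a median of -0.98. *STM* (AT1G62360), the KNOX factor that keeps meristem cells undifferentiated, averaged 4.6 in leaves and 7.49 in apices (-2.89). Its relatives *KNAT1* (3.69 in leaves and 6.82 in apices) and *KNAT6* (3.77 in leaves and 6.69 in apices) differed by about as much, and the organ boundary genes *LSH4* (5.58 in leaves and 9.25 in apices) and *LSH3* (4.96 in leaves and 7.32 in apices) were called too. The defining markers of the stem cell niche were not called: *WUS* stood at 3.03 in leaves and 3.01 in apices, and *CLV3* at 2.86 in leaves and 2.77 in apices, with the median of all values at 4.32. After centring on *PP2A* and *UBC21*, *CUC3*, *PNF*, *ATH1* and *LOG4* fell short of 2-fold and 6 of the 21 remained called. The *LOG4* call was also lost without leaf replicate 2 (-0.97) and the *PNF* call without apex replicate 3 (-0.96).

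Among 16 genes of organ primordia and polarity, 5 were called higher in apices and 1 in leaves (median -0.77). *AN3* (AT5G28640), a coactivator that keeps young leaf cells dividing, averaged 5.17 in leaves and 8.36 in apices, and *ANT*, which promotes primordium growth, 5.09 in leaves and 7.45 in apices. *GRF5*, whose product binds AN3, averaged 3.76 in leaves and 6.05 in apices. The polarity gene *YAB5* ran against its list, at 8.57 in leaves and 7.33 in apices (1.24), while its relatives *FIL* (-0.68), *YAB2* (-0.99) and *YAB3* (-0.43) were not called. In the growth-regulating factor family, which was examined after these values had been seen, 5 of 9 members were called higher in apices (median -1.08), led by *GRF9* (3.95 in leaves and 6.59 in apices).

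Genes of cell division were higher in apices almost throughout. Of 23 mitosis genes, 21 were called higher in apices and none in leaves (median -1.89), and the leaf and apex arrays did not overlap for any of the 23, as was the case for 15650 of all 31004 genes. The mitotic kinase gene *CDKB1;1* (AT3G54180) averaged 5.39 in leaves and 8.04 in apices (-2.64), the Aurora kinase gene *AUR2* 6.39 in leaves and 8.88 in apices, and *KNOLLE*, which encodes the syntaxin of the cell plate, 7.26 in leaves and 9.52 in apices. The B-type cyclin gene *CYCB1;2* averaged 6.55 in leaves and 8.77 in apices. The 2 genes not called were *CYCB3;1* (-0.99) and *CYCA2;1* (-0.42). Averaged over the list, the 3 leaf arrays lay between 4.88 and 4.96 and the 3 apex arrays between 6.64 and 6.7.

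DNA replication genes differed by less. Of 16, 5 were called higher in apices (median -0.95): the D-type cyclin genes *CYCD3;1* (6.34 in leaves and 8.26 in apices) and *CYCD3;3* (-1.19), the sliding clamp genes *PCNA1* (8.19 in leaves and 9.9 in apices) and *PCNA2* (-1.34), and the helicase gene *MCM6* (-1.04). After centring on *PP2A* and *UBC21* 3 of the 16 were called, without *CYCD3;3* (-0.91) and *MCM6* (-0.76), and *MCM6* was not called after median centring either. The other *MCM* genes measured lay between -0.99 and -0.87, just short of the 2-fold limit. Without that limit 15 of the 16 genes passed an adjusted p under 0.01, and *CYCA3;1* did not. *CDC6* was the single gene of the list with a higher level in leaves (5.32 in leaves and 4.92 in apices), and it was not called. Core histones, taken by symbol after the values had been seen, gave 7 calls higher in apices of 18 and a median of -0.85, and 2 calls after centring on *PP2A* and *UBC21*.

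Hormone genes were split between the tissues. In the auxin list (median -0.35) 5 of 12 genes were called higher in apices, among them the importer gene *LAX2* (6.83 in leaves and 8.75 in apices), the response factor gene *ARF5* (3.99 in leaves and 5.5 in apices), *YUC4* for auxin synthesis (-1.32) and the kinase gene *PID* (-1.05). *YUC2*, another synthesis gene, was the 1 call in the other direction (4.89 in leaves and 3.62 in apices). After centring on *PP2A* and *UBC21* 3 of the 12 were called higher in apices. *PID* was then not called (-0.78), and it fell to the 2-fold limit or under it without leaf replicate 1 or 3 or apex replicate 3. The cytokinin response genes *ARR6* (8.57 in leaves and 7.29 in apices) and *ARR15* (5.67 in leaves and 7.16 in apices) belong to the same class of response regulators and were called in opposite directions, as the 2 calls among 10 cytokinin genes (median -0.07, and 0.21 after that centring).

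Of 31 gibberellin genes 3 were called, near the share of all genes called in either direction (9.22%). All 3 were higher in apices (list median -0.04, and 0.23 after centring on *PP2A* and *UBC21*). They were the biosynthetic oxidase genes *GA20OX2* (5.35 in leaves and 6.89 in apices) and *GA20OX1* (5.1 in leaves and 6.18 in apices) and the catabolic oxidase gene *GA2OX1* (3.91 in leaves and 5.11 in apices). After centring on *PP2A* and *UBC21*, *GA20OX2* alone was called, and *GA20OX1* also lost its call without leaf replicate 3 (-0.97) or apex replicate 1 (-0.96). The last biosynthetic step stood the other way without a call, with *GA3OX1* at 7.1 in leaves and 6.47 in apices and *GA3OX2* at 4.72 in leaves and 4.03 in apices. The receptor genes *GID1A* (0.63) and *GID1B* (0.58) and the DELLA repressor gene *RGA* (-0.85) were not called.

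Jasmonate and glucosinolate genes were examined because *AOC1* and *CYP81F4* were among the largest differences, so these lists were chosen after their values had been seen. Of 29 jasmonate genes, 13 were called higher in leaves and none in apices (median 0.95). The median of the same list was 0.12 in WT under LDs and 1.48 in *flc svp* under SDs. The synthesis genes *LOX2* (9.49 in leaves and 5.89 in apices), *AOS* (10.27 in leaves and 7.47 in apices) and *AOC2* (11.84 in leaves and 8.44 in apices) were called, as were 4 genes for JAZ repressors, *JAZ1*, *JAZ3*, *JAZ7* and *JAZ9*. *AOC1* and *AOC2* are close copies and their separate levels are uncertain. The storage protein genes *VSP1* (7.9 in leaves and 9.61 in apices) and *VSP2* (5.59 in leaves and 6.67 in apices) had the lowest differences of the list, without a call.

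In the glucosinolate list 1 of 22 genes was called higher in leaves and 6 in apices (median -0.07), and 3 and 6 after centring on *PP2A* and *UBC21* (median 0.21). As deposited, the median of the same list was -1.1 in WT under LDs and 0.03 in *flc svp* under SDs. For aliphatic glucosinolates, which are made from methionine, the regulators *MYB28* (7.41 in leaves and 8.92 in apices) and *MYB29* (5.91 in leaves and 8.09 in apices) and the enzyme genes *MAM1* (8.76 in leaves and 10.92 in apices), *CYP79F1* (7.57 in leaves and 9.73 in apices) and *CYP83A1* (8.99 in leaves and 10.32 in apices) were all called higher in apices. For indole glucosinolates, made from tryptophan, *CYP79B2* (-0.25), *CYP79B3* (0.04) and *CYP83B1* (0.47) were not called. The related genes *CYP81F2* (7.34 in leaves and 3.97 in apices, 3.37) and *CYP81F4* (4.84 in leaves and 9.0 in apices, -4.16), whose products modify the indole side chain at different ring positions, were called in opposite directions.

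Flowering genes were of particular interest because both mutated genes encode repressors of flowering. *FT* (AT1G65480), the mobile flowering signal, read 4.29, 4.9 and 4.41 in leaves, against 2.59, 2.74 and 2.76 in apices (1.84 ± 0.16, adjusted p = 2.50e-12), and all leaf arrays lay above all apex arrays. Its relative *TSF* was not called (4.98 in leaves and 4.7 in apices), nor was *CO*, the activator of *FT* (4.22 in leaves and 3.66 in apices, 0.56). Genes for repressors of *FT* did not behave alike. *TEM1* was called higher in leaves, where it read 7.88, 7.07 and 7.77, against 6.11, 6.34 and 6.13 in apices (1.38 ± 0.27), as was *SNZ*, which read 7.74, 7.43 and 7.75 in leaves, against 6.44, 6.4 and 6.46 in apices (1.2 ± 0.16). *TEM2* varied more (5.92, 5.12 and 6.95 in leaves, against 4.57, 3.93 and 5.09 in apices), the lowest leaf array lay just above the highest apex array, and the call was lost without leaf replicate 3 or apex replicate 2. Among the relatives of *SNZ*, *AP2* was called the other way (5.63 ± 0.06 in leaves and 7.14 ± 0.02 in apices), and *TOE1* (0.45), *TOE3* (0.48), *SMZ* (-0.36) and *TOE2* (-0.64) were not called. Of these 19 photoperiod genes, 4 were called higher in leaves and 1 in apices (median 0.45).

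The floral integrators were divided. *SOC1* (AT2G45660), a MADS-box gene that promotes flowering, read 8.29, 8.3 and 8.27 in leaves, against 7.14, 7.12 and 7.05 in apices (1.18 ± 0.13). *AGL24*, whose product pairs with SOC1, was by contrast higher in apices, at 5.12, 5.59 and 5.74 in leaves, against 8.12, 8.11 and 8.1 in apices (-2.62 ± 0.18). *SEP3* (AT1G24260), a MADS-box gene of floral organ identity, read 5.46, 6.08 and 6.71 in leaves, against 3.36, 3.18 and 3.49 in apices (2.74 ± 0.21), and *SEP4* averaged 5.85 ± 0.09 in leaves and 3.96 ± 0.10 in apices. The age pathway genes *SPL9* (5.75 ± 0.17 in leaves and 7.10 ± 0.16 in apices) and *SPL15* (3.60 ± 0.07 in leaves and 4.75 ± 0.08 in apices) were higher in apices, as was *AGL19* (2.62 ± 0.18 in leaves and 3.64 ± 0.43 in apices). *SPL15* and *AGL19* fell short of 2-fold after centring on *PP2A* and *UBC21*, and *AGL19* also without leaf replicate 1 (-0.89) or apex replicate 3 (-0.77). The meristem identity genes *LFY* (4.05 in leaves and 4.04 in apices), *AP1* (2.79 in leaves and 2.54 in apices), *CAL* (3.12 in leaves and 3.07 in apices) and *FUL* (4.2 in leaves and 4.32 in apices) were not called. *LFY*, *AP1* and *CAL* lay below the median of all values (4.32) in both tissues. In all, 3 of 28 genes were called higher in leaves and 4 in apices (median 0.08).

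**Figure D3:**
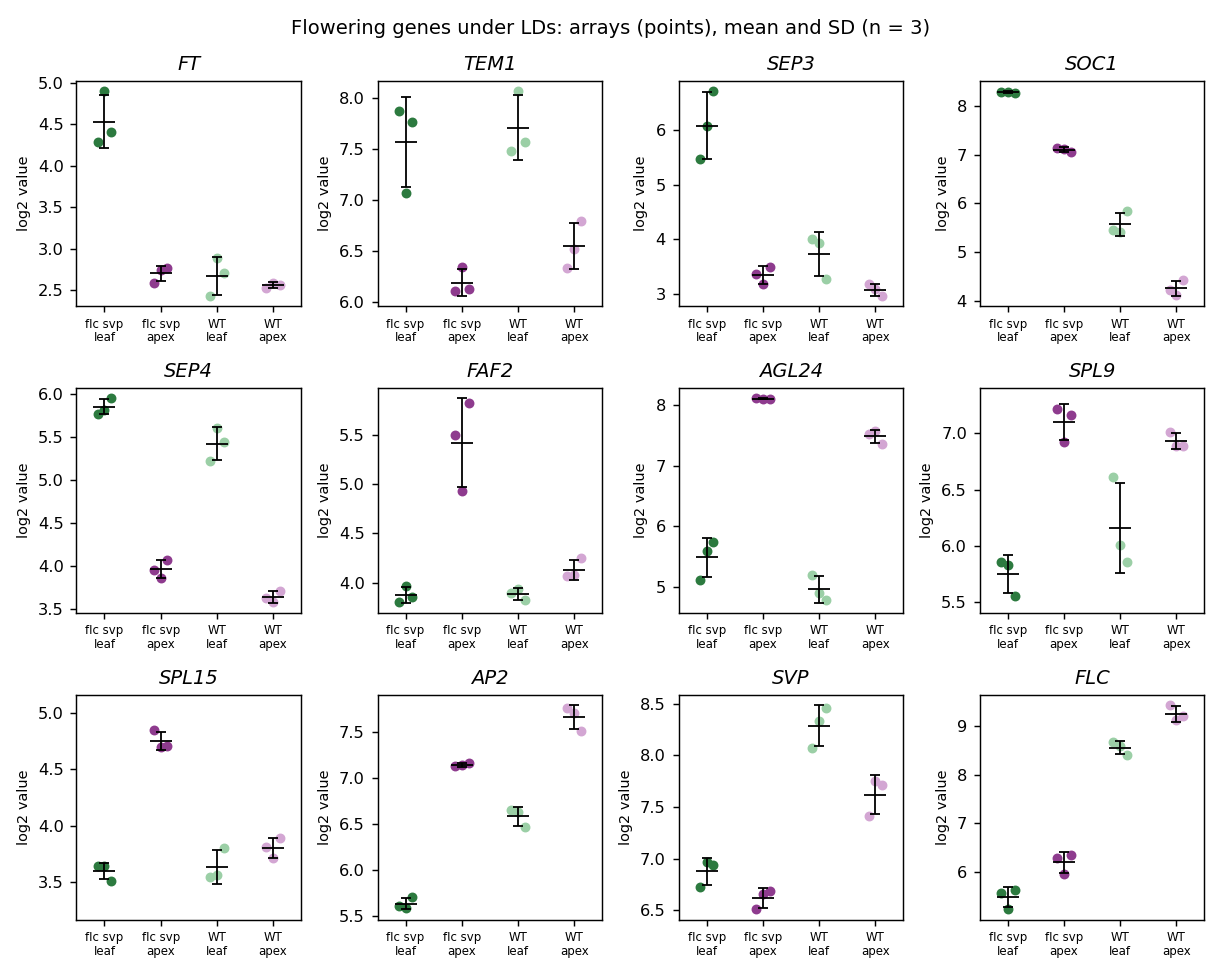
Log2 values (y axis, scaled for each gene) of 12 flowering genes under LDs in *flc svp* leaf and apex and in WT leaf and apex, left to right. Points are arrays and bars are the mean and SD (n = 3), and *FT* and *SEP3* stand above the other 3 groups in *flc svp* leaves alone, while *FAF2* does so in *flc svp* apices.

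Most tissue differences were shared with WT. Of the 1532 genes called higher in *flc svp* leaves, 1205 were also called in WT (78.7% of the *flc svp* genes and 76.8% of the 1570 WT genes), and of the 1328 called higher in *flc svp* apices, 1119 were (84.3% of the *flc svp* genes and 68.6% of the 1632 WT genes). The 1570 and 1632 WT genes were out of the 31004 tested. The difference itself was then tested, as the leaf minus apex difference in *flc svp* minus that in WT. It was called for 63 genes, 0.203% of those tested, with 57 above 0 and 6 below 0. By the sizes of the means alone, the leaf moved further than the apex in 37 of the 57, each time with a higher mean in *flc svp* leaves, and the apex moved further in the other 20, each time with a lower mean in *flc svp* apices. A fit to the 12 arrays of these groups alone called 13 genes, 9 of them among the 63, and treatment of the 2-fold limit as part of the test left *AT1G61890* alone. All 63 kept their direction under every alternative, and 26 kept their call whichever of the 12 arrays was left out.

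*FT* and *SEP3* were among the 57. *FT* averaged 4.53 ± 0.32 in *flc svp* leaves, against 2.43, 2.89 and 2.7 in the WT leaf arrays, and 2.70 ± 0.09 in *flc svp* apices, against 2.52, 2.59 and 2.56 in the WT apex arrays, so that the tissue difference was 1.84 in *flc svp* and 0.11 in WT (difference 1.73 ± 0.22, adjusted p = 2.12e-05). The *FT* values in WT leaves and in apices of both genotypes lay below the median of all values over the *flc svp* LD arrays (4.32). A small tissue difference in WT could go unseen at such low levels. *SEP3* averaged 6.08 ± 0.62 in *flc svp* leaves and 3.73 ± 0.40 in WT leaves, and 3.34 ± 0.16 in *flc svp* apices and 3.07 ± 0.11 in WT apices (2.08 ± 0.30, adjusted p = 2.11e-04). Both kept their calls in all 12 fits with an array left out, while in the limma fit to the 12 arrays alone *FT* was called with a fixed replicate block (adjusted p = 0.00773) and not without one (0.0126), and *SEP3* was called in neither (0.0925 with the block and 0.0551 without). *SOC1* behaved differently. Its mean was higher in *flc svp* than in WT in leaves (8.29 and 5.57) and in apices (7.11 and 4.25), and its tissue difference, 1.18 in *flc svp* and 1.32 in WT, was not called as different (-0.14 ± 0.18, adjusted p = 0.887). For *SPL15* the tissue difference was 0.98 ± 0.18 lower than in WT (adjusted p = 0.00220), just under the 2-fold limit, with 4.75 in *flc svp* apices and 3.80 in WT apices.

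The largest values above 0 belonged to genes high in *flc svp* leaves. *AT5G36925* averaged 6.76 in *flc svp* leaves and 4.12 in WT leaves, and 3.93 in *flc svp* apices and 4.22 in WT apices (2.93 ± 0.59, adjusted p = 0.00768). *AT1G61890* read 9.0, 8.96 and 9.49 in *flc svp* leaves, against 7.07, 6.5 and 6.46 in WT leaves, and 5.88, 6.25 and 6.3 in *flc svp* apices, against 6.6, 6.31 and 6.65 in WT apices (2.85 ± 0.26, adjusted p = 3.29e-08). *WRKY18*, a defence transcription factor gene, averaged 8.92 in *flc svp* leaves and 6.36 in WT leaves, and 6.71 in *flc svp* apices and 6.89 in WT apices (2.74 ± 0.44). Of the 29 jasmonate genes 5 were called above 0. *OPR3*, which encodes a reductase of jasmonate synthesis, averaged 9.58 in *flc svp* leaves and 7.36 in WT leaves, and 8.44 in *flc svp* apices and 8.43 in WT apices (2.22 ± 0.32). The lipoxygenase genes *LOX3* (1.73 ± 0.35) and *LOX4* (1.69 ± 0.32), the ligase gene *OPCL1* (1.46 ± 0.30) and *JAZ3* (1.32 ± 0.27) were the others. *AT1G61890*, *WRKY18* and *OPR3* kept their calls in all 12 fits with an array left out, *LOX4* in 4, *AT5G36925* in 3, and *LOX3*, *OPCL1* and *JAZ3* in 2 each. In the limma fits to the 12 arrays of these groups alone, *WRKY18* was not called (adjusted p = 0.0278 without a block and 0.0433 with a fixed one). Neither was *OPR3* (0.0293 and 0.0433), nor were *AT5G36925*, *LOX3*, *LOX4*, *OPCL1* and *JAZ3*. The *LOX3*, *LOX4* and *OPCL1* levels in *flc svp* leaves were lowest in replicate 1.

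A second set stood apart through WT apices. *GRP9*, a glycine-rich protein gene, averaged 4.59 in *flc svp* leaves and 4.85 in WT leaves, and 4.48 in *flc svp* apices and 7.29 in WT apices (2.55 ± 0.53, adjusted p = 0.00954), and this limma call was lost without a replicate block (adjusted p = 0.0140) and in 9 of the 12 fits with an array left out. *AT2G18150* read 3.39, 3.15 and 3.38 in *flc svp* apices, against 5.9, 6.31 and 5.15 in WT apices, and averaged 3.08 in *flc svp* leaves and 3.26 in WT leaves. *HCHIB*, a basic chitinase gene, averaged 5.58 in *flc svp* apices and 7.26 in WT apices, with 4.61 in *flc svp* leaves and 4.77 in WT leaves. *PRXCB*, a peroxidase gene, was also lower in *flc svp* apices (8.55) than in WT apices (9.90). Its leaf means ran the other way, at 9.52 in *flc svp* and 9.19 in WT, so that its WT apices stood less apart. *PRXCB* kept its call in 2 of the 12 fits with an array left out, and lost it in limma without a replicate block (adjusted p = 0.0129) and after centring each array on its median (0.0103), whereas *AT2G18150* and *HCHIB* kept theirs in all 12. In the limma fits to the 12 arrays of these groups alone, *PRXCB* was not called (adjusted p = 0.0437 without a block and 0.0683 with a fixed one). Neither were *AT2G18150* (0.0278 and 0.0433) and *HCHIB* (0.0291 and 0.0538). These 3 genes were singled out after their values had been seen.

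Of the 6 genes below 0, 5 had their larger shift in leaves. *ANK*, which encodes an ankyrin-repeat protein, averaged 4.38 in *flc svp* leaves and 5.98 in WT leaves, and 3.80 in *flc svp* apices and 3.99 in WT apices (-1.42 ± 0.29). *LGO* (AT3G10525), a cyclin-dependent kinase inhibitor gene that promotes endoreduplication, read 7.5, 7.92 and 7.15 in *flc svp* leaves, against 8.61, 8.86 and 8.81 in WT leaves, and averaged 7.77 in *flc svp* apices and 7.75 in WT apices (-1.27 ± 0.21, adjusted p = 7.53e-04). *MYB16*, a regulator of epidermal cell shape and cuticle, averaged 6.81 in *flc svp* leaves and 7.62 in WT leaves, and 6.87 in *flc svp* apices and 6.47 in WT apices (-1.21 ± 0.24). The exception was *FAF2* (AT1G03170), whose family is linked to shoot meristem size. It read 5.5, 4.93 and 5.82 in *flc svp* apices, against 4.07, 4.08 and 4.25 in WT apices, with 3.88 in *flc svp* leaves and 3.89 in WT leaves (-1.30 ± 0.26, adjusted p = 0.00829). *LGO* kept its call in all 12 fits with an array left out, *MYB16* in 3, *ANK* in 2 and *FAF2* in 1. In the limma fits to the 12 arrays of these groups alone, none of them was called (*LGO* adjusted p = 0.0647 without a block and 0.0949 with a fixed one).

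**Figure D4:**
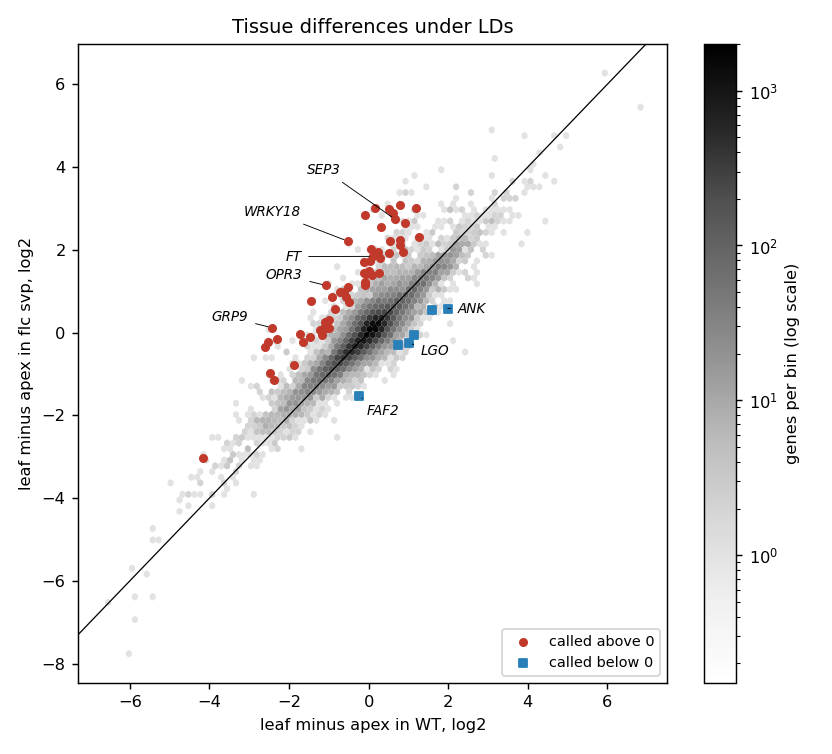
Leaf minus apex difference in *flc svp* (y axis, log2) against that in WT (x axis, log2) under LDs for 31004 genes, shaded by the number of genes per bin on a log scale. The line marks equal differences, and red circles (57 genes) and blue squares (6 genes) were called above and below 0 for the difference between the genotypes.

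The tissue difference under LDs was set against that under SDs in the same genotype. Of the genes called higher in leaves under LDs, 1138 were also called under SDs (74.3% of the LD genes and 80.9% of the 1406 SD genes), and of those higher in apices 982 were (73.9% of the LD genes and 79.1% of the 1241 SD genes). The 1406 and 1241 SD genes were likewise out of the 31004 tested. The difference between the tissue differences was called for 11 genes, 0.0355% of those tested, 5 above 0 and 6 below 0. A fit with limma to the 12 arrays of these groups alone called 0 genes, with 2817 at an unadjusted p under 0.05 without a replicate block and 3048 with a fixed one, so that these 11 calls rest on the spread shared across the 48 arrays. Leaving out single arrays gave 5 to 13 calls, and *FT*, *LHCB4.3*, *ADC2* and *GA2OX2* kept theirs in all 12 such fits, *AT2G34930* in 10, and the other 6 genes in 4 to 6.

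All 5 genes above 0 had a higher mean in LD leaves than in SD leaves. *LHCB4.3* (AT2G40100), a minor antenna gene of photosystem II, read 7.84, 8.18 and 8.51 in LD leaves, against 6.04, 6.36 and 5.92 in SD leaves, and averaged 6.16 in LD apices and 5.99 in SD apices (1.90 ± 0.25, adjusted p = 2.90e-04). *FT* averaged 4.53 ± 0.32 in LD leaves and 3.04 ± 0.23 in SD leaves, and 2.70 ± 0.09 in LD apices and 2.63 ± 0.11 in SD apices (1.43 ± 0.22, adjusted p = 0.00111). *NF-YB3*, whose product works with CO on *FT*, read 8.91, 9.02 and 8.97 in LD leaves, against 8.21, 8.13 and 8.13 in SD leaves (1.00 ± 0.14), and *LBD37*, a repressor of nitrogen-responsive genes, 8.29, 8.13 and 8.51 in LD leaves, against 7.13, 7.41 and 7.09 in SD leaves (1.02 ± 0.18). *CP1* (AT5G49480), which encodes a calcium-binding protein, also had a lower mean in LD apices than in SD apices, with 6.87 in LD leaves and 5.64 in SD leaves, and 6.16 in LD apices and 6.67 in SD apices (1.73 ± 0.31).

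The 6 genes below 0 were led by *CYP82G1*, a P450 gene for a volatile homoterpene, which averaged 3.40 in LD leaves and 4.82 in SD leaves, and 3.01 in LD apices and 2.99 in SD apices (-1.44 ± 0.25). *ADC2* (AT4G34710), an arginine decarboxylase gene of polyamine synthesis, changed the sign of its tissue difference: it averaged 6.59 in leaves and 7.17 in apices under LDs, against 7.46 in leaves and 6.73 in apices under SDs (-1.32 ± 0.19, adjusted p = 4.13e-04). *GA2OX2*, a gibberellin catabolic gene, did so too, at 5.22 in leaves and 5.90 in apices under LDs, against 6.44 in leaves and 5.92 in apices under SDs (-1.21 ± 0.18, adjusted p = 9.44e-04). The glucosinolate transporter gene *GTR1* averaged 7.83 in LD leaves and 9.45 in SD leaves (-1.2 ± 0.22), and *AT2G34930* 4.88 in LD leaves and 6.49 in SD leaves (-1.35 ± 0.22). *HIPP21*, a metal-binding isoprenylated protein gene, was the 1 gene of the 6 whose larger shift was in apices, at 5.31 in LD apices and 4.3 in SD apices (-1.21 ± 0.21).

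**Figure D5:**
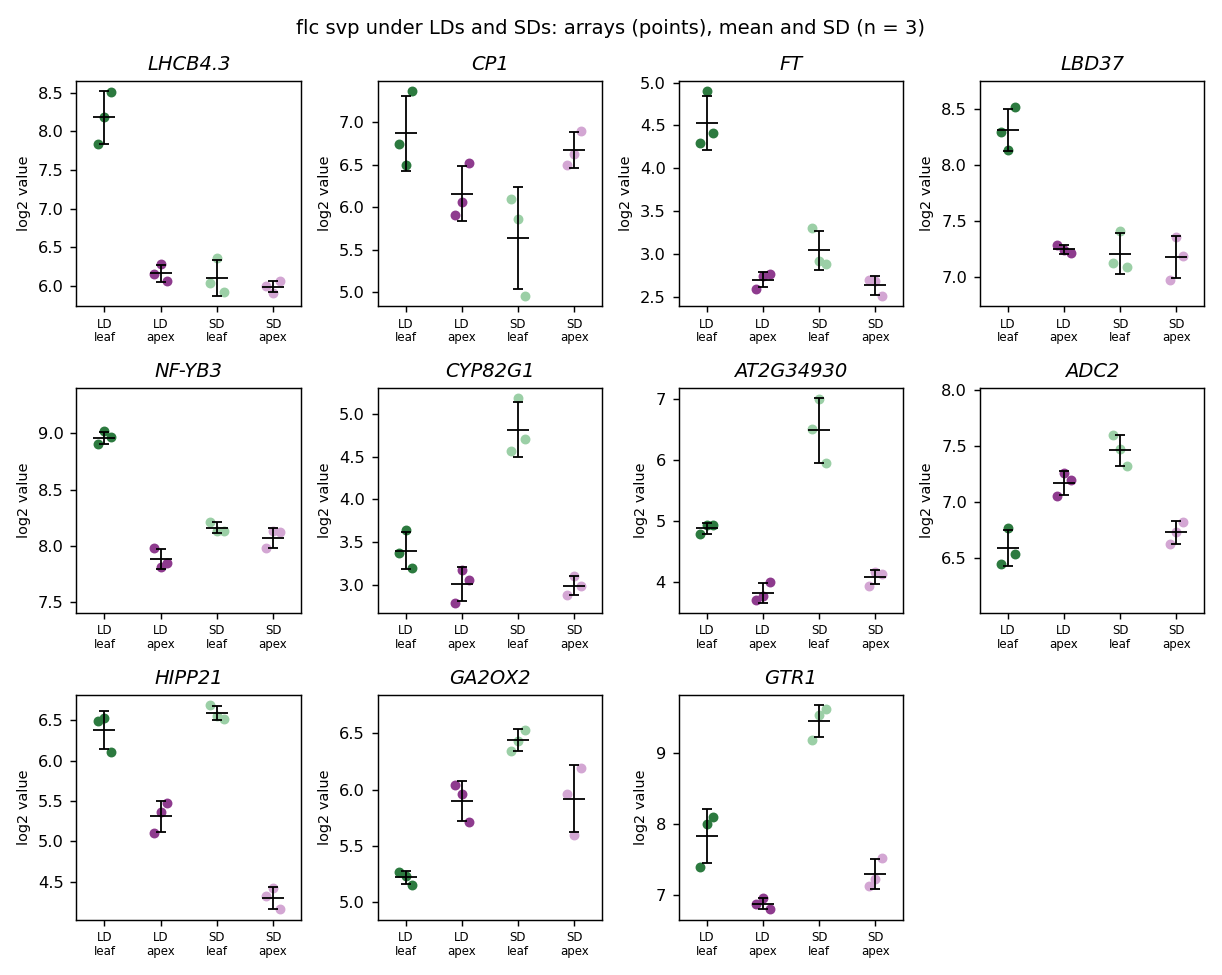
Log2 values (y axis, scaled for each gene) of the 11 genes whose tissue difference in *flc svp* differed between day lengths, in LD leaf, LD apex, SD leaf and SD apex, left to right. Points are arrays and bars are the mean and SD (n = 3), and *LHCB4.3*, *FT*, *LBD37* and *NF-YB3* stand highest in LD leaves.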

How the data were processed

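Total RNA of 48 samples was hybridised to AGRONOMICS1 tiling arrays, in 16 groups (genotype, tissue and day length) of 3 biological replicates. The authors background-corrected, quantile-normalised and summarised the probe signals per gene with RMA, and the deposited values are on the log2 scale. Quantile normalisation gives every array nearly the same distribution, so a change shared by most genes of a tissue cannot be seen. The software version, the genome build and the annotation release are not given in the sources used here, so that no coordinates are printed. The table holds 31004 loci, of which 30484 (98.3%) matched a symbol or locus of the reference gene table, and 132 share identical values with another locus.

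The values were used as deposited. A mean for each of the 16 groups was fitted to all 48 arrays with limma 3.58.1 in R 4.3.3, with the replicate number as a random block (duplicateCorrelation, consensus correlation 0.0336), after the study's methods. Deviations from the group means correlated at 0.13, 0.16 and 0.18 between same-numbered leaf and apex arrays of *flc svp* under LDs. Differently numbered arrays and the other groups were not compared in this way. The numbers were taken to pair the samples. p-values were adjusted by Benjamini-Hochberg over all genes within each contrast, and genes past 2-fold at an adjusted p under 0.01 were called. The fit was tested on simulated data. The precision is limited by the 3 arrays per group.

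Named genes were the 12 with the largest called difference in each direction whose arrays did not overlap, the 4 largest in each direction for each difference of tissue differences, *FLC*, *SVP* and members of the gene lists. The lists held 281 genes, 277 of them in the table. The groups compared and these lists were chosen with earlier results of these data known. The jasmonate, glucosinolate, growth-regulating factor, core histone and WRKY lists were added after the values had been seen. Alternatives covered the block, the arrays fitted, the adjustment, the thresholds, a filter on dim genes, array centring and each array left out. A planned motif search in promoters and a list by protein product name were not run here.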

Additional observations from a re-analysis of the deposited data

Results flagged for a closer look

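For 17 genes that were named by rule or belong to a list, the tissue difference in *flc svp* differed from that in WT by the test of the difference itself (limma, adjusted p under 0.01, n = 3 arrays per group). Above 0 were *AT5G36925* (2.93), *AT1G61890* (2.85), *WRKY18* (2.74), *GRP9* (2.55), *OPR3* (2.22), *SEP3* (2.08), *FT* (1.73), *LOX3* (1.73), *LOX4* (1.69), *OPCL1* (1.46), *MYB34* (1.4), *JAZ3* (1.32) and *SOT16* (1.09). Below 0 were *ANK* (-1.42), *FAF2* (-1.30), *LGO* (-1.27) and *MYB16* (-1.21). *MYB34* kept its call in 4 and *SOT16* in 5 of the 12 fits with an array left out.

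The tissue difference of *flc svp* under LDs differed from that under SDs for 11 genes by the same test. Above 0 were *LHCB4.3* (1.90), *CP1* (1.73), *FT* (1.43), *LBD37* (1.02) and *NF-YB3* (1.00). Below 0 were *CYP82G1* (-1.44), *AT2G34930* (-1.35), *ADC2* (-1.32), *HIPP21* (-1.21), *GA2OX2* (-1.21) and *GTR1* (-1.2).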

How the results depend on the processing

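None of the named and listed genes that were followed singly, nor any of the genes called between genotypes or day lengths, changed direction with a call under the alternatives run. With the arrays of the comparison alone and the replicate number as a fixed block, 1511 genes were higher in leaves, 1307 in apices, 11 differed between genotypes and 0 between day lengths (3048 at an unadjusted p under 0.05), and without a block 13 and 0 (2817) did. Without the 2-fold limit 4129 genes were higher in leaves and 6298 in apices, and with it tested as part of the null (treat) 600 were higher in leaves, 461 in apices, 1 differed between genotypes and 0 between day lengths. At an adjusted p under 0.05, 107 genes differed between genotypes and 32 between day lengths. Centring on *PP2A* and *UBC21* gave 2425 genes higher in leaves, 771 in apices and 4 that differed between day lengths. Loci with identical values counted once, an alternative chosen after seeing the data, left 1528 and 1322. Leaving out each array gave 1465 to 1590 genes higher in leaves, 1285 to 1357 in apices, 33 to 64 between genotypes and 5 to 13 between day lengths. The lowest genotype counts came without *flc svp* apex replicate 1 (33), WT apex replicate 2 (34), WT leaf replicate 3 (37) and 2 (39), and *flc svp* leaf replicate 3 (40) and 2 (41), and the lowest day length counts without LD apex replicate 3 (5), SD apex replicate 1 (6), LD apex replicate 2 (7) and SD apex replicate 3 (7). The causes were not tested.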

Other observations

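In the WRKY family of transcription factors, taken by symbol after the values had been seen, 10 of 67 genes were called higher in leaves and 1 in apices (median 0.12). Over all genes 4.94% were called higher in leaves and 4.28% in apices. Of 91 genes of the mitochondrial genome 2 were called higher in leaves and 1 in apices (median 0.06), both below those shares. By contrast, 9 of 18 genes of the chloroplast genome were called higher in leaves. Neither of the 2 measured precursors of miR156 and miR172 was called (median 0.20). Of the 5 jasmonate genes called between genotypes, *OPR3* (9.58 in LD leaves and 10.66 in SD leaves), *LOX3* (6.99 and 7.91), *LOX4* (5.60 and 6.54) and *OPCL1* (8.64 and 9.81) had lower means in *flc svp* leaves under LDs than under SDs, and *JAZ3* (8.18 in LD leaves and 8.06 in SD leaves) did not. *AT4G22513*, uniformly low in *flc svp* LD leaves, spread widely in other leaf groups, with 7.05, 3.23 and 5.58 in *flc svp* leaves under SDs and 3.82, 6.4 and 6.62 in WT leaves under LDs.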
